A study of Mus musculus with 49 samples.

Results

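Solute carriers are the membrane proteins that move sugars, amino acids, ions, metals, nucleosides and organic acids across the plasma membrane and the membranes of organelles. Their genes carry names built from the letters Slc, a family number, the letter a and a member number, and 87 genes on the array had such a name. They were represented by 99 of the 7739 spotted clones, and each gene was followed through the brightest of its clones, with 1 value per mouse. Of the 87 genes, 17 belonged to the mitochondrial family Slc25 and 70 to other families.

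The RNA came from blood of wild-type female C57Bl/6J mice of 7 weeks that had received oleic acid (OA), a long-chain fatty acid, or physiological serum by tail vein injection under xylazine-ketamine anaesthesia. Blood was sampled after 1, 1.5, 3, 4, 18 or 24 h, from 4, 6, 4, 4, 4 and 4 OA mice and from 2, 1, 2, 2, 2 and 2 serum mice at those times, which gave 26 OA mice and 11 serum mice. The labels call the material peripheral blood mononuclear cells (PBMC), while the extraction text speaks of lung and of a kit for blood. Amplified RNA was labelled with 33P and hybridized to 49 nylon filters of spotted cDNA, and 12 mice with 2 filters entered as their mean. No untreated mouse was sampled, so every mouse had been anaesthetized and injected. Below, early means 1 and 1.5 h, middle 3 and 4 h, and late 18 and 24 h, and a value for a stage gives both of its times equal weight.

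In a blood cell, plasma membrane carriers such as the glucose transporters Slc2a1 and Slc2a3, the lactate carrier Slc16a1 and the amino acid carrier subunit Slc3a2 bring in fuel and building blocks or let waste out. Red cells are known for the anion exchanger Slc4a1 (band 3), which swaps chloride for bicarbonate and anchors the membrane skeleton. Slc25 carriers link the cytosol to the mitochondrial matrix, for example by exchanging ADP for ATP or by importing acylcarnitines made from fatty acids.

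A spot was taken as well above the empty spots when its intensity passed the median of the empty spots of the same filter by 2.6 robust SDs. Of the 87 genes, 42 (48.3%) passed this limit on most of the 49 filters, that is on more filters than not, against 4051 of all 7739 clones (52.4%). The limit is permissive, since between 14.2% and 18.4% of the empty spots of a filter also passed it. Among the genes, 20 passed on all 49 filters, 68 on at least 1 filter and 19 on none. With the 95th percentile of the empty spots as the limit, 19 genes passed on most filters. Just inside the limit lay Slc27a2 and Slc25a1, each above on 30 filters, and Slc25a4, above on 31. Just outside lay Slc25a17, above on 21 filters, and Slc7a1 and Slc39a6, each above on 20.

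Transport classes were set by family number, so the mitochondrial class is the family Slc25 and does not give the location of each member. By transport class, all 3 carriers of nucleotide sugars (Slc35a1, Slc35a2 and Slc35a4) passed on most filters. So did 7 of 10 carriers of bicarbonate, protons and salts, 5 of 7 of sugars, 6 of 11 of metals, 7 of 17 mitochondrial carriers, 6 of 16 of amino acids and 2 of 5 of monocarboxylates and organic acids. In the class of choline and urea carriers 2 of 4 genes passed (the choline carriers Slc44a1 and Slc44a2), and phosphate carriers passed for 1 of 4 genes, nucleoside carriers for 1 of 3 and vitamin carriers for 1 of 3. The class of fatty acid and bile acid carriers passed for 1 of 2 genes, Slc27a2, which activates and takes up very long-chain fatty acids. The only organic ion carrier, Slc22a7, and the only vesicular or lysosomal carrier, the sialic acid exporter Slc17a5, passed on 0 filters. The mitochondrial iron importer Slc25a37 (mitoferrin 1), known from red cell precursors, also passed on 0 filters, whereas its relative Slc25a28 (mitoferrin 2) passed on 41. Among the 10 brightest spots were those of Slc16a13, Slc45a3, Slc45a4, Slc9a3r1, Slc30a9, Slc2a3, Slc2a1, Slc25a5 and Slc25a3, although brightness also depends on the clone and does not rank the genes by RNA level. Slc9a3r1 fits the naming rule but encodes a scaffold protein that binds membrane proteins, not a carrier. The gene listed as Slc24a6 is now called Slc8b1 and encodes a mitochondrial sodium-calcium exchanger, but its family number placed it with the salt carriers.

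**Figure D1:**
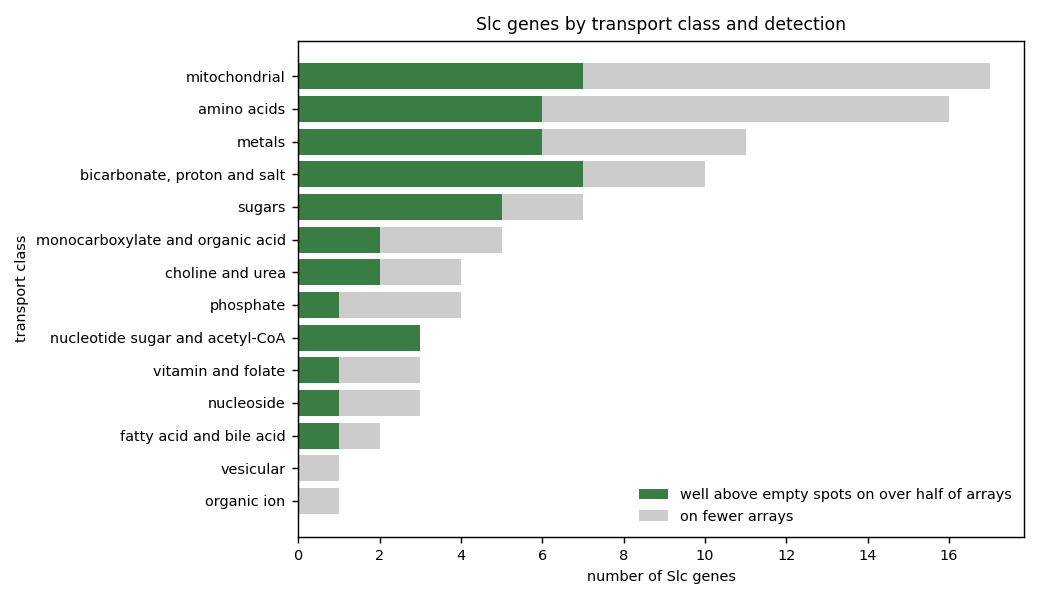
Number of Slc genes (horizontal axis) in each transport class (vertical axis), split into genes well above the empty spots on most of the 49 filters (green) and on fewer filters (grey). The 17 mitochondrial Slc25 genes hold 7 detected members, and all 3 nucleotide sugar carriers are detected.

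The first comparison asked how OA mice differed from serum mice. Over the mean of the 6 times, 0 of the 87 genes passed an adjusted p of 0.05 in limma, and 0% of all 7739 clones did. At an unadjusted p under 0.05 there were 2 genes, against 3.44% of all clones. The median difference of the 87 genes was 0.01 on the log2 scale of normalized signal, against 0.00 for all clones, and 48 of the 87 differences were positive. Standard errors ran up to 0.51, with a median of 0.13, so changes of small size could not be seen with 11 serum mice. In these samples of mixed cells, fewer cells of a type and less RNA per cell cannot be told apart.

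The smallest p belonged to Slc40a1 (ferroportin), the only known cellular iron exporter. Over the 6 times its log2 signal averaged 6.78 ± 0.57 in OA mice and 7.42 ± 0.86 in serum mice (SD, n = 26 and 11). The difference was -0.59 (SE 0.23, 95% interval -1.06 to -0.13), with an adjusted p of 1 in limma (unadjusted 0.0148). The groups overlapped, and the clone passed the detection limit on 7 of 35 OA filters and 7 of 14 serum filters. In middle OA mice the lowest, median and highest values were 6.35, 6.65 and 7.56, against 7.83, 7.59, 8.24 and 7.33 in the 4 middle serum mice, a difference of -0.98 (SE 0.38). In late OA mice they were 6.25, 6.46 and 8.11, against 8.03, 6.76, 9.15 and 6.32 in the 4 late serum mice, a difference of -0.91 (SE 0.38). Neither stage passed the adjusted test (adjusted p of 0.937 at the middle stage and 1 at the late stage in limma). In early mice no such gap was seen, with medians of 6.86 in OA mice and 6.62 in serum mice. The cationic amino acid carrier Slc7a2 was the other gene under an unadjusted p of 0.05, with a difference of 0.24 (SE 0.11, unadjusted p = 0.0372 in limma).

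Taken stage by stage, OA minus serum again gave 0 of 87 genes at the early, middle and late stages. Over all clones 0% passed at the early stage, 0.0129% at the middle stage and 0% at the late stage. At an unadjusted p under 0.05 there were 1, 5 and 2 genes in that order, against 1.45%, 5.08% and 2.84% of all clones. At the middle stage the genes included Slc7a2 at 0.59 (SE 0.18), Slc25a5 at -0.44 (SE 0.16), Slc40a1 and Slc39a14, a zinc and iron importer that passed the detection limit on 0 filters. Both serum mice at 4 h are among the 7 mice described further below that stand apart. Without serum 4 h mouse 4 the counts at the middle stage rose. That fit rests at 4 h on serum mouse 1 alone. At the late stage the genes were Slc40a1 and the mitochondrial carrier Slc25a14 at -0.36 (SE 0.17), and at the early stage Slc17a5.

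For the carriers that handle fatty acids themselves, the difference was small beside its interval. The fatty acid carrier Slc27a2 differed by 0.05 (95% interval -0.10 to 0.19) between OA and serum mice over the 6 times. For Slc25a20, the carnitine-acylcarnitine carrier that brings fatty acyl groups into mitochondria, the difference was 0.06 (95% interval -0.18 to 0.29). Neither reached an unadjusted p of 0.05 at any of the 3 stages in limma.

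The second comparison asked what changed with time after OA. Between late and early OA mice, 7 of the 87 genes passed (8.23% of all clones did), 3 of them higher late (4.35% of all clones) and 4 lower late (3.88%). As a share, 7 of 87 is 8.05%, so solute carriers changed about as often as the array as a whole. At an unadjusted p under 0.05 there were 24 genes (26.2% of all clones). With each filter scaled to its median in place of quantiles, 5 genes were higher and 3 lower late. The median change was -0.05 for the 87 genes and -0.01 for all clones. The genes that rose were Slc35a1, Slc16a13 and Slc45a3, and those that fell were Slc9a3r1, Slc26a11, Slc20a2 and Slc4a2. All 7 had the same direction, and passed, when the 7 mice described further below were left out. For each of the 7 genes the values of late and early mice overlapped.

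Slc35a1 carries CMP-sialic acid into the Golgi, where sialic acid is added to surface glycoproteins. In late OA mice its log2 signals had a lowest, median and highest value of 7.80, 8.52 and 9.92 (n = 8), against 7.22, 7.59 and 8.25 in early OA mice (n = 10). The rise was 0.89 (SE 0.19, adjusted p = 0.00492 in limma), and 8 of 8 late mice lay above the early mean. It was largest at 24 h, with 9.92, 8.94, 8.68 and 9.29, all above every early OA mouse, while the 18 h mice had 7.85, 8.03, 8.36 and 7.80. The related carriers Slc35a4 and Slc35a2 (the UDP-galactose carrier) stood at 0.91 (SE 0.30, adjusted p = 0.0564) and 0.25 (SE 0.11, adjusted p = 0.160).

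The promoter of Slc35a1 and that of Slc9a3r1, which moved the other way, are shown because Slc35a1 had the smallest adjusted p of the rises and Slc9a3r1 the largest fall. They come from RefSeq (GRCm38.p6). Each is the 250 bases before the gene start, 5′ to 3′ on the gene's strand: chr4:34687439-34687688 on the minus strand for Slc35a1 and chr11:115163091-115163340 on the plus strand for Slc9a3r1. Capitals mark matches to the GC box GGGCGG on either strand.
Slc35a1: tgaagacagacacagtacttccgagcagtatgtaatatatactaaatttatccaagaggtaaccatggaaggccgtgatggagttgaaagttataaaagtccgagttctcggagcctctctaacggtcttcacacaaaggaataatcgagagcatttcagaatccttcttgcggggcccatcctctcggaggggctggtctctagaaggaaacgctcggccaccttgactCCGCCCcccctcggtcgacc
Slc9a3r1: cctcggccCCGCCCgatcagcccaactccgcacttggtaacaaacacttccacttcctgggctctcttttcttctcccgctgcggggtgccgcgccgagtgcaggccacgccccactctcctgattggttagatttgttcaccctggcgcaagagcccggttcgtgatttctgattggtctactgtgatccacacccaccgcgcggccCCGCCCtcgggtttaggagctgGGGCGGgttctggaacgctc

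Slc16a13 belongs to the monocarboxylate transporter family. Its log2 signals in late OA mice had a lowest, median and highest value of 13.35, 13.71 and 13.81, against 12.19, 12.93 and 13.97 in early OA mice. The rise was 0.65 (SE 0.17, adjusted p = 0.0188 in limma). All 8 late mice lay above the early mean, while the highest early mouse lay above every late mouse. The clone used was close to the bright end of the array, and a second clone of the gene, above the limit on 1 filter, changed by 0.11 (SE 0.19) and had a correlation of 0.01 with the first over 37 mice. Its escort protein Bsg (basigin) is known to accompany the related lactate carriers, and stood at 0.22 (adjusted p = 0.547). The lactate carrier Slc16a1 itself passed only at 24 h alone, at 0.66 (adjusted p = 0.0453).

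Slc45a3 (prostein) is related to sugar carriers. Late OA mice had a lowest, median and highest log2 signal of 11.30, 12.22 and 12.96, against 10.18, 11.09 and 12.28 in early OA mice. The rise of 0.98 (SE 0.28, adjusted p = 0.0264 in limma) went with 8 of 8 late mice above the early mean. A second clone passed the limit on 0 filters and had a correlation of 0.03 with the first. Its relative Slc45a4 stood at 1.05 (SE 0.36, adjusted p = 0.0687).

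Slc9a3r1, the scaffold protein, had the largest fall. Late OA mice had a lowest, median and highest log2 signal of 9.11, 9.73 and 11.60, against 10.12, 11.09 and 12.34 in early OA mice. The change was -1.13 (SE 0.35, adjusted p = 0.0402 in limma), with 7 of 8 late mice under the early mean and OA 18 h mouse 2 above it. All 4 mice at 24 h, with 9.27, 9.11, 9.57 and 9.80, lay below every early OA mouse. The call held in 7 of 18 fits that left out 1 mouse each. Serum mice had 9.80 and 10.43 at 24 h and 9.75 and 12.12 at 18 h, against 10.90, 11.06 and 11.46 in early serum mice.

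Slc26a11, a sulfate carrier, had 7.15, 7.56 and 8.09 (lowest, median and highest) in late OA mice, against 7.88, 8.12 and 8.98 in early OA mice. It fell by 0.64 on the log2 scale (SE 0.17, adjusted p = 0.0204 in limma). Late filters passed the detection limit 6 times in 11, and early filters 13 times in 13.

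Slc4a2 (AE2, an anion exchanger found in many tissues) averaged 7.06 ± 0.15 in late OA mice and 7.44 ± 0.24 in early OA mice (SD, n = 8 and 10), with an adjusted p of 0.0235 in limma. It passed the detection limit on 1 of 11 late filters and 8 of 13 early filters. Slc20a2 (Pit2, a sodium-phosphate cotransporter) averaged 6.89 ± 0.23 in late OA mice and 7.29 ± 0.25 in early OA mice, with an adjusted p of 0.0225. It passed the limit on 0 of 11 late filters and 6 of 13 early filters, so the level in late mice has only an upper bound and no fold is given.

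**Figure D2:**
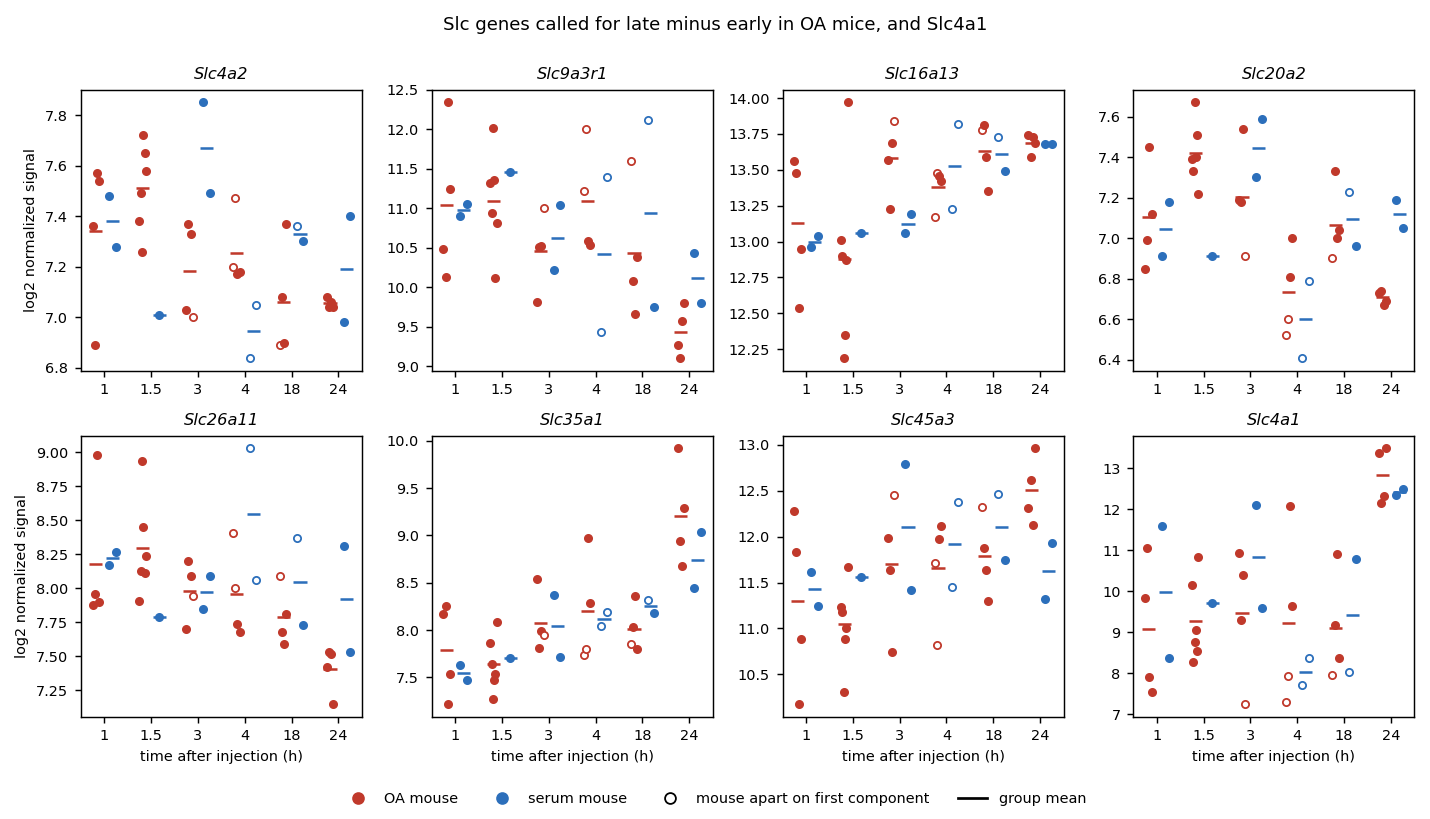
Log2 normalized signal (vertical axes) by time after injection (horizontal axes) for the 7 Slc genes called between late and early OA mice and for Slc4a1. Red points are OA mice, blue points serum mice, open points the 7 mice that stand apart, and bars group means. The 4 OA mice at 24 h lie above every early OA mouse for Slc35a1 and Slc4a1, and below every early OA mouse for Slc9a3r1.

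The count of 7 depended on single mice and on the times pooled. It was 1 without OA 1 h mouse 5 (Slc35a1), 4 without OA 1 h mouse 6 and 11 without OA 1 h mouse 3. Over all clones such fits called 256 (without OA 1 h mouse 5) to 912, against 637 with every mouse. The count of genes was 0 without the 1.5 h mice, where 0 clones of all passed, 0 without the 24 h mice, where 4 clones passed, and 15 without the 18 h mice, that is at 24 h alone, where 16.5% of all clones passed.

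Slc4a1, the red cell anion exchanger, spanned a wide range. In early OA mice its lowest, median and highest values were 7.54, 8.91 and 11.05, in middle OA mice 7.25, 9.47 and 12.07, and in late OA mice 7.95, 11.52 and 13.48. Late minus early was 1.79 (SE 0.66) and missed the threshold (adjusted p = 0.0867 in limma). The 18 h mice had 7.95, 9.17, 10.91 and 8.37. At 24 h the OA mice had 13.36, 12.14, 12.33 and 13.48, all above every early OA mouse, which gave 3.65 over early mice (SE 0.82, adjusted p = 0.00379). The serum mice at 24 h were also high, at 12.34 and 12.49, against 11.58, 8.37 and 9.70 in early serum mice. A second clone of Slc4a1 had a correlation of 0.98 with the first over 37 mice and a late minus early change of 1.73 (SE 0.59).

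Some markers of blood cell types moved over the same stages. The mean log2 signal of 14 erythroid marker clones had a median of 8.91 (range 8.58 to 9.61) in late OA mice, against 8.53 (8.35 to 8.90) in early OA mice, and 9.01 (8.79 to 9.29) in late serum mice, against 8.50 (8.48 to 8.79) in early serum mice. Of these 14, 7 were above the detection limit on most filters, Rhag was among those above it on 0 filters, and the globins Hba-a1 and Hbb-b1 were saturated on all 49 filters. The mean of 7 neutrophil marker clones had a median of 8.56 (8.24 to 10.05) in late OA mice, against 10.07 (9.16 to 10.80) in early OA mice, and 9.26 (8.24 to 10.16) in late serum mice, against 10.05 (9.76 to 10.11) in early serum mice. All 7 were above the limit on most filters. Of the lists, 5 of 14 erythroid and 3 of 7 neutrophil clones passed between late and early OA mice, against 8.23% of all clones. So did 1 of 8 monocyte, 2 of 11 T cell, 1 of 7 B cell and 1 of 5 platelet clones. Of the erythroid calls, Rhd and Car1 were above the limit on 4 and 1 filters. Gata1 and Tfrc, above it on 49, did not pass (0.10 and 0.28). Late and early OA medians were 8.29 and 8.08 for monocyte clones and 8.17 and 8.37 for T cell clones. They were 9.51 and 9.58 for B cell clones and 11.59 and 11.29 for platelet clones. The part of any list in the changes of Slc4a1, Slc35a1 and the other genes was not tested.

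Serum mice allow the same late minus early difference, with 4 late and 3 early mice. There 0 of 87 genes passed in limma (0.0258% of all clones), and 5 genes had an unadjusted p under 0.05 (8.71% of all clones): Slc43a1, Slc35a1, Slc19a3, Slc28a2 and Slc16a13. Slc35a1 had 8.32, 8.18, 8.44 and 9.04 in late serum mice, against 7.63, 7.47 and 7.70 in early serum mice, a change of 0.87 (SE 0.31, adjusted p = 0.490). The serum groups did not overlap for this gene, and the OA change minus the serum change was 0.02 (95% interval -0.71 to 0.75). Slc16a13 had 13.73, 13.49, 13.68 and 13.68 in late serum mice, against 12.96, 13.04 and 13.06 in early serum mice. Its change was 0.62 (SE 0.28), and OA minus serum in that change was 0.04 (95% interval -0.63 to 0.71). Slc4a1 differed by 0.72 between the changes, with an interval of -1.89 to 3.33.

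The test of whether OA and serum mice changed by different amounts called 0 of 87 genes and 0% of all clones in limma, with 3 genes at an unadjusted p under 0.05 (1.51% of all clones). These were Slc17a5, Slc20a2 and Slc4a2, none of them above the detection limit on most filters. Slc26a11, which fell in OA mice, had 8.37, 7.73, 8.31 and 7.53 in late serum mice, against 8.17, 8.27 and 7.79 in early serum mice. The OA change minus the serum change was -0.62 (95% interval -1.29 to 0.05).

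**Figure D3:**
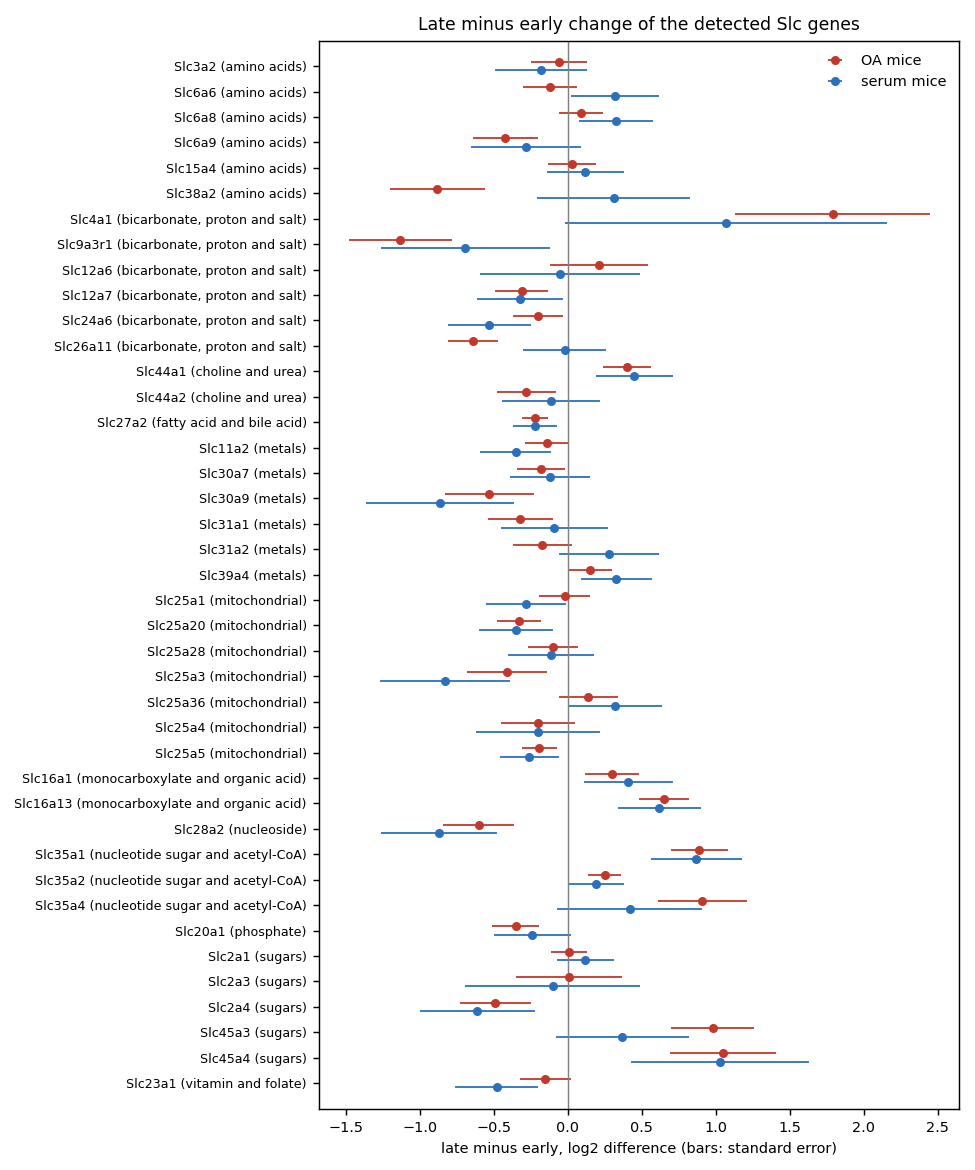
Late minus early change on the log2 scale (horizontal axis, bars show 1 standard error) for the Slc genes above the detection limit on most filters, 1 of them not shown, with OA mice in red above serum mice in blue. Slc35a1 and Slc16a13 have nearly the same change in both, at 0.89 and 0.65 in OA mice and 0.87 and 0.62 in serum mice.

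Between middle and early OA mice, 8 of the 87 genes passed (9.21% of all clones did), 2 higher (3.02% of all clones) and 6 lower (6.19%), which is a share of 9.20%. The amino acid class held 2 of the falls, Slc3a2 and Slc6a9, and the other falls were Slc28a2, Slc25a5, Slc2a4 and Slc17a5. Both rises, Slc39a4 and Slc39a8, were in the zinc importer family Slc39. At an unadjusted p under 0.05 there were 26 genes (26.7% of all clones). With median scaling 4 genes were higher and 6 lower. The median change was 0.01 for the 87 genes and 0.05 for all clones. These calls rested on some mice more than on others: at 4 h alone 18 genes passed (18.6% of all clones) and at 3 h alone 0 did (0.0258%).

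Slc28a2 is a sodium-driven carrier of purine nucleosides. In middle OA mice its lowest, median and highest log2 signals were 7.78, 8.76 and 9.65, against 9.03, 9.61 and 10.02 in early OA mice. It fell by 0.87 on the log2 scale (SE 0.24, adjusted p = 0.0240 in limma), with 7 of 8 middle mice under the early mean. A second clone followed it with a correlation of 0.81 over 37 mice and changed by -0.41 (SE 0.25). Middle serum mice had 9.16, 8.83, 7.45 and 7.59, against 9.15, 9.95 and 9.63 in early serum mice.

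Slc3a2 encodes the CD98 heavy chain, which joins Slc7 light chains to form amino acid exchangers. In middle OA mice it had 7.03, 8.01 and 8.38 (lowest, median and highest), against 8.20, 8.59 and 8.87 in early OA mice. The change was -0.68 (SE 0.19, adjusted p = 0.0260 in limma) and 8 of 8 middle mice under the early mean. At the late stage the lowest, median and highest values in OA mice were 7.41, 8.66 and 9.0. Middle serum mice had 7.41, 7.83 and 8.53 for Slc3a2, against 8.18, 8.19 and 8.49 in early serum mice. A second clone had a correlation of 0.49 with it and changed by -0.26 (SE 0.15).

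The glycine carrier Slc6a9 changed by -0.76 (SE 0.22, adjusted p = 0.0331 in limma), with a median of 8.40 in middle OA mice and 9.10 in early OA mice. Slc2a4, the glucose carrier known for its response to insulin, changed by -0.75 (SE 0.24, adjusted p = 0.0434), with a median of 8.64 in middle OA mice and 9.38 in early OA mice. All 8 middle OA mice lay under the early OA mean for both genes. Middle serum mice ranged from 6.36 to 9.69 for Slc6a9 (median 8.35), against 8.89 to 9.15 in early serum mice (median 9.03). For Slc2a4 they ranged from 6.81 to 9.37 (median 8.61), against 9.23 to 9.45 in early serum mice (median 9.27). A second clone of Slc2a4, above the limit on 0 filters, had a correlation of -0.33 with the first. This second clone changed by 0.18 (SE 0.12) between middle and early OA mice. Between late and early OA mice it changed by 0.49 (SE 0.12), against -0.49 for the clone used.

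The zinc importer Slc39a4 changed by 0.48 (SE 0.15, adjusted p = 0.0390 in limma). Its lowest, median and highest values were 8.07, 8.67 and 9.11 in middle OA mice, against 7.64, 8.11 and 8.58 in early OA mice. For Slc39a4 they were 8.32, 8.50 and 8.85 in middle serum mice, against 8.04, 8.12 and 8.18 in early serum mice. Its relative Slc39a8 averaged 6.57 ± 0.26 in middle OA mice and 6.20 ± 0.20 in early OA mice (SD, n = 8 and 10, adjusted p = 0.0463), but passed the detection limit on 0 filters. The lysosomal carrier Slc17a5, also above the limit on 0 filters, averaged 6.13 ± 0.24 in middle OA mice and 6.59 ± 0.36 in early OA mice (adjusted p = 0.0499). No fold is given for these genes.

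**Figure D4:**
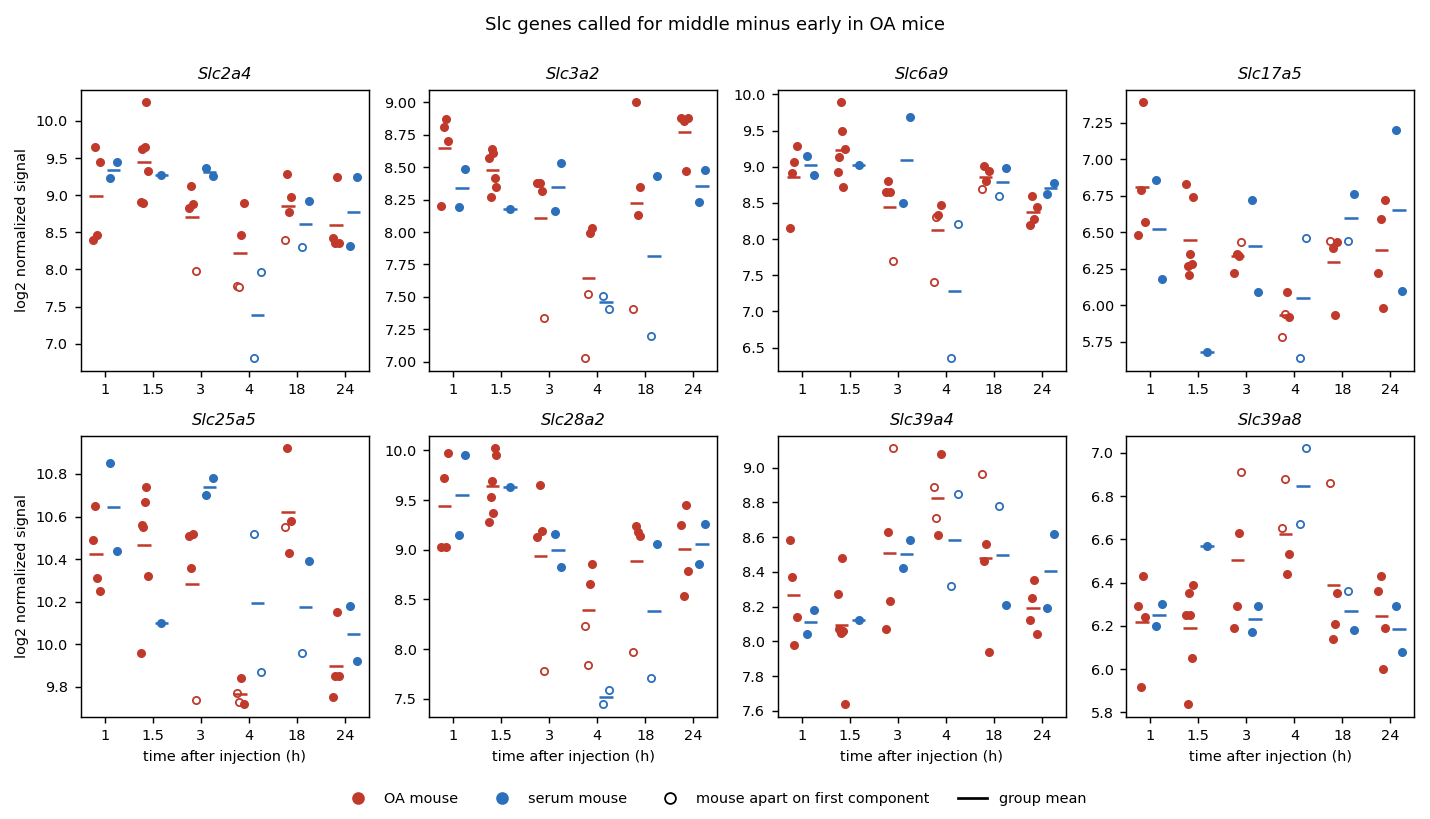
Log2 normalized signal (vertical axes) by time after injection (horizontal axes) for the 8 Slc genes called between middle and early OA mice, with OA mice in red, serum mice in blue, the 7 mice that stand apart as open points and bars for group means. The open points at 3 and 4 h hold the lowest OA values of Slc3a2 and Slc28a2.

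Of the 37 mice, 7 stood apart on the first principal component of all clones, which held 36.2% of the variance, by more than 5 robust SDs. They were OA 3 h mouse 7, OA 4 h mice 2 and 3, OA 18 h mouse 2, serum 4 h mice 1 and 4 and serum 18 h mouse 1. That is 3 of 8 middle OA mice and 0 of 10 early OA mice, with 1 of 8 late OA mice, 2 of 4 middle, 1 of 4 late and 0 of 3 early serum mice. In all 7, Slc3a2 lay between 7.03 and 7.52 and Slc4a1 between 7.25 and 8.36. Without them the middle minus early comparison called 0 of 87 genes (2.92% of all clones), with changes of -0.37 (SE 0.13) for Slc3a2, -0.50 (SE 0.19) for Slc28a2, -0.32 (SE 0.12) for Slc25a5 and 0.40 (SE 0.14) for Slc39a4. The smallest adjusted p of these 4 was 0.131 in limma, for Slc3a2. Leaving out OA 3 h mouse 7 alone was enough for 0 calls, and leaving out OA 4 h mouse 2 or mouse 3 left 1. Over all clones such fits called 220 (without OA 3 h mouse 7) to 834, against 713 with every mouse. The count of genes was also moved by early mice: it was 2 without OA 1 h mouse 6, 3 without OA 1 h mouse 5 or OA 1.5 h mouse 5, 4 without OA 1 h mouse 3 or OA 1.5 h mouse 7, and 5 without OA 1.5 h mouse 3 or mouse 6. The mean of 7 B cell marker clones had a median of 9.08 (8.76 to 9.59) in middle OA mice, against 9.58 (8.93 to 9.90) in early OA mice, and that of the 7 neutrophil clones 9.51 (8.78 to 9.93), against 10.07 (9.16 to 10.80). Of the 7 B cell clones 6 were above the limit on most filters and none was at 0, and the part of either list in these changes was not tested.

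Without the 7 mice the late minus early comparison called 15 of 87 genes (17.6% of all clones), 7 higher and 8 lower late. They held all 7 genes called with every mouse. Added were Slc4a1 at 1.98 (SE 0.59, adjusted p = 0.0256), Slc35a4 at 1.04 (SE 0.28), Slc45a4 at 1.16 (SE 0.33) and the choline carrier Slc44a1 at 0.44 (SE 0.15). The added falls were Slc44a2 at -0.42 (SE 0.14), the acylcarnitine carrier Slc25a20 at -0.37 (SE 0.11), Slc25a13 and the thiamine carrier Slc19a3. The last pair lay near or under the detection limit, above it on 0 and 2 of 49 filters. The comparisons of OA minus serum over the 6 times and at the middle stage could not be fitted without these mice, since no serum mouse at 4 h would remain.

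A test over the 6 times in OA mice asked whether a gene changed at any of them. It called 7 of 87 genes (12.1% of all clones), which is 8.05%: Slc35a1, Slc20a2, Slc25a5, Slc4a1, Slc34a2, Slc3a2 and Slc24a6. Slc24a6 (Slc8b1) was low at 4 h, with 8.09, 7.13, 7.67 and 7.31, against a median of 8.50 in early OA mice, and its adjusted p was 0.0473 in limma. Slc34a2, a sodium-phosphate cotransporter known from lung and gut epithelium, passed the limit on 0 of 13 early filters and 6 of 11 late filters. Its means were 7.39 ± 0.46 in late and 6.96 ± 0.25 in early OA mice (SD, n = 8 and 10), with an adjusted p of 0.103 for late minus early, which missed the threshold, and 0.0399 over the 6 times in limma. The count of 7 was 3 without any one of OA 4 h mouse 3 and OA 24 h mice 2, 3 and 6, and 4 without any one of OA 1 h mouse 6 and OA 1.5 h mice 5 and 7. It was 11 without OA 1 h mouse 2 or OA 1.5 h mouse 2, 14 without OA 18 h mouse 2 and 16 without OA 3 h mouse 7. Over all clones, fits that left out 1 mouse called 456 to 1487, against 939 with every mouse.

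The mitochondrial Slc25 family gave 0 of 17 genes between late and early OA mice, 1 of 17 between middle and early and 1 of 17 over the 6 times, in both cases Slc25a5. Of all clones 8.23%, 9.21% and 12.1% were called in these comparisons. The families outside Slc25 gave 7 of 70 between late and early and 7 of 70 between middle and early. The medians of the 17 changes were -0.07 late minus early and 0.10 middle minus early, against -0.01 and 0.05 for all clones.

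Slc25a5 (ANT2) exchanges ADP for ATP across the inner mitochondrial membrane. At 4 h the 4 OA mice had 9.77, 9.73, 9.84 and 9.72, and at 24 h 9.75, 9.85, 10.15 and 9.85, against a lowest, median and highest value of 9.96, 10.52 and 10.74 in early OA mice. At 4 h all values lay below every early OA mouse, whereas at 18 h, with 10.55, 10.92, 10.43 and 10.58, they lay within or above the early range. Over the 6 times its adjusted p was 0.00851 in limma, and its call held in each of 26 fits that left out 1 OA mouse. Middle minus early was -0.42 (SE 0.12, adjusted p = 0.0328), with 6 of 8 middle mice under the early mean. Serum mice had 10.52 and 9.87 at 4 h and 9.92 and 10.18 at 24 h, against 10.10, 10.44 and 10.85 in early serum mice. OA minus serum at the middle stage was -0.44 (SE 0.16, unadjusted p = 0.00878, adjusted p = 0.858 in limma).

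The sequences before the starts of Slc25a5 and Slc28a2 are shown from RefSeq (GRCm38.p6). They are chrX:36795347-36795596 and chr2:122426185-122426434, both on the plus strand. Capitals mark the GC box GGGCGG and the GATA core (AGATAA or TGATAA), on either strand. Both signals had their lowest OA mean at 4 h, but so did Slc3a2, Slc6a9, Slc2a4 and Slc17a5, the other falls between middle and early. Windows were found for 6 of the 8 genes called there. The GATA core occurred in 2 of them, Slc25a5 and Slc28a2, and the GC box in 4. The pair thus does not stand for all the falls, and a link between motif and signal was not tested.
Slc25a5: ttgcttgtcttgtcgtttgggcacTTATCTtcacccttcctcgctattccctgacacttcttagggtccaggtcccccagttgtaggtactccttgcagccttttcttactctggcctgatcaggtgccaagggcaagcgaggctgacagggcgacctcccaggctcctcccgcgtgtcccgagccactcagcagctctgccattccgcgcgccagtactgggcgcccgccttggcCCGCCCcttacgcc
Slc28a2: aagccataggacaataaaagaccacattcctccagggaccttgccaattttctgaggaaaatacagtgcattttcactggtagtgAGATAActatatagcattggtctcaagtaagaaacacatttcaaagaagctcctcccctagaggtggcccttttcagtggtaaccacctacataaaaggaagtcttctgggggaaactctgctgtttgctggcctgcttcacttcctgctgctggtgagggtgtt

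The other 6 detected mitochondrial carriers gave no call in the comparisons above with every mouse and every time. Slc25a3, which imports phosphate, changed by -0.41 (SE 0.27) late minus early in OA mice and by -0.83 (SE 0.44) in serum mice. Slc25a36, a pyrimidine nucleotide carrier, had 10.38 in OA 4 h mouse 2, 10.59 in mouse 3, 9.62 in mouse 5 and 10.28 in mouse 6, and at 4 h alone stood 0.82 above early mice (SE 0.24, adjusted p = 0.0198 in limma). Slc25a20, the acylcarnitine carrier, had 8.31, 8.56 and 8.90 in late OA mice, against 8.53, 8.94 and 9.19 in early OA mice, a change of -0.33 (SE 0.15, adjusted p = 0.159), beside -0.35 (SE 0.25) in serum mice. For the citrate carrier Slc25a1, the adenine nucleotide carrier Slc25a4 (ANT1) and Slc25a28, late minus early changes lay at -0.02, -0.20 and -0.10, each within 1 standard error of 0. The values of Slc25a4 spread most at 4 h, where OA mice had between 7.14 and 9.07 and serum mice 9.85 and 7.62.

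**Figure D5:**
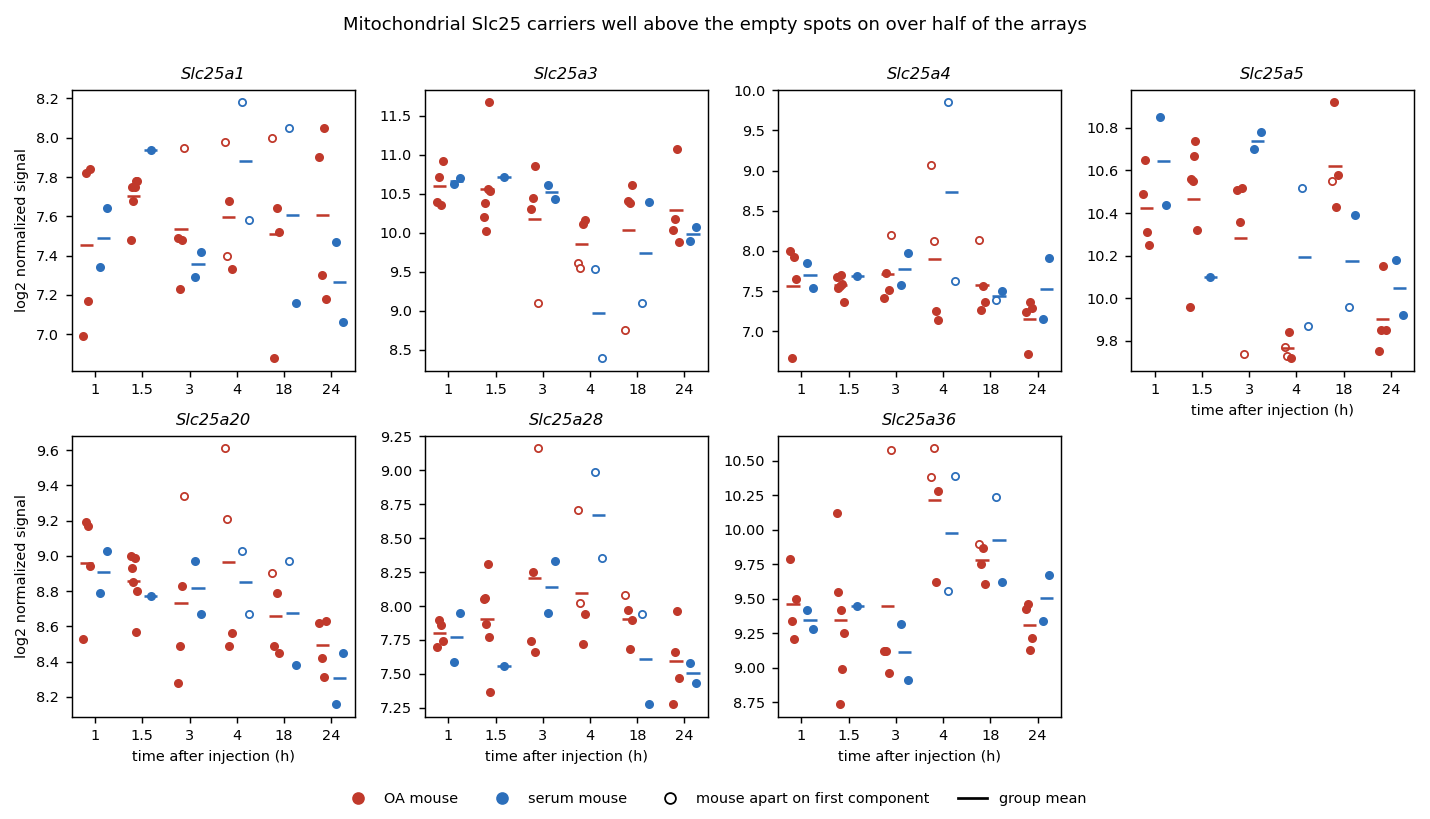
Log2 normalized signal (vertical axes) by time after injection (horizontal axes) for the 7 Slc25 genes above the detection limit on most filters, with OA mice in red, serum mice in blue, the 7 mice that stand apart as open points and bars for group means. For Slc25a5 all 4 OA mice at 4 h and 3 of 4 at 24 h lie below every early OA mouse.

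Several clones of 1 gene were spotted for 12 of the genes, and the clones disagreed for some. For the glucose carrier Slc2a1, the brightest clone changed by 0.01 between late and early OA mice, while the other, above the limit on 47 filters, changed by -1.80 (SE 0.41, adjusted p = 0.00801 in limma). Their correlation over 37 mice was -0.07. With the mean of a gene's clones, Slc2a1 was called late minus early at -0.89 and middle minus early at -1.0, and Slc16a13 and Slc45a3 were not called. For Slc25a1 the correlation was -0.49, and for Slc4a1 0.98.

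Single values also stood far from their group. The amino acid carrier Slc38a2 had 12.92 in OA 1 h mouse 3, against 9.02, 9.63 and 9.37 in the other OA mice at 1 h, and between 8.55 and 9.63 in late OA mice. Its late minus early change of -0.88 (SE 0.32, adjusted p = 0.0781 in limma) includes that mouse.

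A further 59 genes on the array were picked by the names of other transport families (the ABC family, ion pumps, channels, aquaporins and Slco). The names do not show that each is a transporter. Of the 59, 30 were above the detection limit on most filters. Late minus early in OA mice, 1 rose (Abce1, in the set by its ABC name only, 0.56) and 2 fell (Kcnab2 at -0.86 and Kcnj8 at -0.90). Middle minus early, 1 rose (Kcne4, above the detection limit on 0 filters) and 5 fell. The largest change was -2.85 (SE 0.55, adjusted p = 0.00365 in limma) for Atp2a3, a calcium pump of the endoplasmic reticulum in blood cells. Of all clones 8.23% passed late minus early and 9.21% middle minus early. For OA minus serum 0 of the 59 passed in limma.

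The promoter windows of 60 of the 87 genes were found in the RefSeq table. The GC box GGGCGG occurred in 63.3% of them, against 32.9% of all 27025 windows of the same length, and their median G plus C content was 61.4%, against 52%. The E-box CACGTG occurred in 15.0%, against 6.0%, and the GATA core in 6.7%, against 17%. The AP-1 motif (TGACTCA or TGAGTCA) occurred in 3.3%, against 4.4%, and the amino acid response core TGATGNAA in 3.3%, against 3.5%. All motifs were searched on both strands, no motif contains another, and no test was made.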

How the data were processed

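The values are microarray intensity readings of 49 filters and a log2 table normalized by quantiles, both deposited by the authors. Per the file headers and labels, each filter carries 9984 spots, of which 7771 hold 7739 clones and 1478 are empty. The deposited intensity is not corrected for background and runs from 15 to a ceiling of 21815, and median intensity per filter lay between 83 and 364. The number of mice limits the precision. Intensities were quantile normalized between filters on the log2 scale, then spots of a clone and filters of a mouse were averaged. A model with 12 groups of treatment and time was fitted to all 7739 clones with limma 3.58.1 in R 4.3.3, and p-values were adjusted by Benjamini-Hochberg over all of them, with a threshold of 0.05. P-values measure the spread between mice. Alternatives were median scaling, the authors' deposited log2 table, a filter on dim clones, all filters with the mouse as a random block, array weights, mouse number as a block, the mean of a gene's clones, and leaving out single mice, times, filter 38 (OA 3 h mouse 3, of doubtful time by earlier results of these data) or, added after seeing the data, 7 mice. The genes named are those called, the 5 of smallest p in a comparison, the brightest, detected Slc25 genes, those with a mouse apart and those near the detection limit, and members and lists were chosen with earlier results of these data known. Mouse numbers did not pair the samples. The study's description lists 2 further mice, a serum mouse of the 1.5 h group and an OA mouse of the 3 h group, which were not analysed here. Some items are not reported here.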

Additional observations from a re-analysis of the deposited data

Results flagged for a closer look

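In OA groups of 4 or 6 mice, a lowest or highest mouse far from the rest was sought by Dixon's criterion. It was found for 11 of 108 combinations of a time and one of the 18 Slc genes called in any comparison (10.19%). The criterion flags about 1 in 20 by chance, but genes measured in the same mouse are not independent. The 18 genes were chosen by calls in these data, and the share over all clones was not computed. The count is therefore not a result about Slc genes. At 3 h, OA mouse 7 was low for Slc3a2 (7.34, next mouse 8.32) and Slc6a9 (7.70, next 8.65) and high for Slc34a2 (7.56, next 6.79). At 4 h, OA mouse 2 was low for Slc6a9 (7.41, next 8.31) and Slc16a13 (13.17, next 13.42), and OA mouse 3 was high for Slc4a2 (7.47, next 7.20). At 18 h, OA mouse 2 was low for Slc28a2 (7.97, next 9.14). These 4 mice are among the 7 that stand apart on the first principal component. Of the other mice, OA 1 h mouse 5 was high for Slc26a11 (8.98, next 7.96), OA 18 h mouse 5 was low for Slc17a5 (5.93, next 6.39), and OA 24 h mouse 5 was low for Slc3a2 (8.47, next 8.86) and high for Slc2a4 (9.24, next 8.43).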

How the results depend on the processing

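The counts were 0 for OA minus serum, for serum late minus early and for the difference of changes. They stayed at 0 under the alternatives run, except for OA minus serum at the middle stage when single mice were left out. The highest count came without serum 4 h mouse 4, a fit that leaves only serum 4 h mouse 1 at that time. Of the calls of single genes none turned direction, and over all alternatives 495 values kept the threshold and 194 lost it. Among genes not called, Slc2a1 stood at -0.89 late minus early with the mean of its clones, against 0.01 with the brightest clone. Without filter 38 (OA 3 h mouse 3), whose time earlier results of these data put in doubt, 18 calls held and 4 were lost. For OA late minus early (7) the count was 12 with the mouse as a random block, 19 with array weights, 0 without 1.5 h, 15 without 18 h, 0 without 24 h, 15 without the 7 mice apart, and 1 to 11 leaving out single mice. For OA middle minus early (8) it was 13 with array weights, 4 with mouse number as a replicate block, 0 at 3 h alone, 18 at 4 h alone, 0 without the 7 mice, and 0 to 12 leaving out single mice. Over the 6 times (7) it was 15 with median scaling, 18 with the random block, 36 with array weights, 15 without the 7 mice, and 3 to 16 leaving out single mice. Causes of these moves were not tested. Median scaling gave 5 higher and 3 lower late (3 and 4 with quantiles) and 4 higher and 6 lower at the middle stage (2 and 6), and moved the median of all clones at the middle stage to 0.124, against 0.045. Over all clones, array weights gave 1789 late minus early (637), 894 middle minus early (713) and 2937 over the 6 times (939). In the same order the random block gave 956, 790 and 1470 clones, and median scaling 852, 988 and 1317. The replicate block gave 781, 414 and 835 clones, and fits without the 7 mice 1363, 226 and 1508. The counts of genes thus moved along with those of all clones in most of these settings. Of the 87 genes, the replicate block called 8 late minus early and 6 over the 6 times. Same-numbered mice had a median correlation of -0.01 over 51 pairs, against 0.02 for other numbers, and 7 of 26 mice correlated best with their own number. Detection on most filters (42 genes) was 19 with the 95th percentile, 20 on all filters and 68 on at least 1. Weak signal over the empty spots limits the genes under the detection limit, and 1 or 2 serum mice per time limit the comparisons with serum, the early one most, where the only 1.5 h serum mouse carries as much weight as both 1 h mice.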

Other observations

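Proteins known to work beside the carriers were also on the array. Mtch2, an outer mitochondrial membrane protein related to the Slc25 family, stood at 0.60 between late and early OA mice (adjusted p = 0.0548 in limma). Tfrc, the transferrin receptor that brings iron into cells, stood at 0.28 (adjusted p = 0.209), and Ank1, the ankyrin that ties band 3 to the membrane skeleton, at 0.29 (adjusted p = 0.14), with a signal above the detection limit on 1 filter. Among other transport genes, the potassium channel subunit Kcnab2 fell both at the middle stage (-1.51, SE 0.24) and at the late stage (-0.86, SE 0.24) relative to the same early OA mice.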
